A study of Mus musculus with 5 samples.

Results

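Plasma cells were singled out in 5 droplet single-cell RNA libraries from spleens of C57BL/6 mice that carried an inv(16) acute myeloid leukaemia. The leukaemic line, called CMM, carries green fluorescent protein (GFP) and was given intravenously. When GFP+ cells made up about 1% of the blood the mice received 3 intravenous injections, 1 every other day. The Decoy group of 4 libraries (Decoy 2, 3, 5 and 6) received CpG-STAT3dODN, a CpG oligonucleotide joined to a decoy DNA for the transcription factor STAT3, and the PBS group of 1 library received phosphate-buffered saline. GFP+c-Kit+ cells were then sorted from the spleens, so that every library had passed the same sort. Plasma and B cells were found in the sorted libraries although few of them held Kit RNA, and the labels do not say how they passed the sort. Shares of plasma cells are therefore shares of sorted cells, and differences in what the sort let through cannot be told apart from differences between the spleens. The labels do not say whether a library is 1 mouse, and give neither sex nor age, so the p-values given here speak of the spread among these libraries, part of which may be technical.

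A barcode counted as a plasma cell when it had at least 500 genes, at least 1000 unique molecular identifiers (UMIs, 1 per captured RNA molecule) and at most 10% mitochondrial UMIs, with at least 5 UMIs of Jchain, at least 2 UMIs in each of at least 2 of the 4 genes Sdc1, Derl3, Xbp1 and Mzb1, and fewer than 5 UMIs per 10000 of the leukaemic genes Cpa3, Ms4a2 and Fcer1a together. Of 32240 kept cells, 507 met the rule, 502 in the Decoy libraries (35, 110, 261 and 96 in Decoy 2, 3, 5 and 6) and 5 in the PBS library. They were set against 2529 B cells, of which 2335 were in the Decoy libraries and 194 in PBS. B cells had passed the same filters with under 5 Jchain UMIs, at least 2 of Cd79a and at least 1 of Ms4a1. The members were thus chosen by the measured levels of these genes, which are given only as a description. The matrices held 32285 genes, with 56490098 to 234251245 UMIs in a Decoy library and 579333323 in PBS, and the median kept cell had 14005 to 36499 UMIs in the Decoy libraries and 31518 in PBS. Each Decoy library shared 12 to 37 of its kept barcodes with PBS and 1 to 6 with another Decoy library; of the Decoy plasma cells, 1 in Decoy 3 and 1 in Decoy 5 had a barcode that PBS also held.

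Plasma cells are the antibody-secreting end stage of the B lineage. The repressor Blimp-1 (gene Prdm1) and the factors IRF4 and XBP1 set up their secretory state, while PAX5 and BACH2 hold B cells in theirs; most of a plasma cell's protein synthesis goes through the endoplasmic reticulum (ER). In class switching a B cell joins its heavy chain variable region to another constant gene, so that IgM gives way to IgG, IgE or IgA. TLR9, the endosomal receptor for CpG DNA, is a known activator of mouse B cells, and C57BL/6 mice carry the constant gene Ighg2c in place of Ighg2a.

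The IgG classes were told apart by their constant genes, which lie in a row on the minus strand of chromosome 12 (mm10, GENCODE M21): Ighm at chr12:113418558-113422730, Ighg3 at chr12:113356224-113361232, Ighg1 at chr12:113325240-113330523, Ighg2b at chr12:113302965-113307933, Ighg2c at chr12:113285325-113288932 and Igha at chr12:113254830-113260236. Their hinge exons, the flexible joint between the antibody's arms and stem, differ in length and in the cysteine codons (capitals, in frame) that bridge the heavy chains; they are shown because the class assignments below rest on these genes. Each is given 5′ to 3′ on the minus strand.
Ighg3, chr12:113360529-113360576, 48 bases: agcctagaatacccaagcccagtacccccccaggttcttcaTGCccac
Ighg1, chr12:113329844-113329882, 39 bases: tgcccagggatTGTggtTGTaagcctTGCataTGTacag
Ighg2b, chr12:113307261-113307326, 66 bases: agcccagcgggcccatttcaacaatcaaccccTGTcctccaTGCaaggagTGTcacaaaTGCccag
Ighg2c, chr12:113288263-113288325, 63 bases: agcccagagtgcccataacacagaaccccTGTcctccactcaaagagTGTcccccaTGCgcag
The hinge of Ighg3 holds 1 cysteine codon, those of Ighg1 and Ighg2b 4 each and that of Ighg2c 3. Over an equal stretch of the last constant-domain exon, nearer to the 3′ end that the libraries count, the 4 genes matched each other at 64.1% (Ighg3 and Ighg2c) to 76.2% (Ighg2b and Ighg2c) of positions, compared base by base without gaps.

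A second set of sequences bears on the secretory genes described further on. The ER stress response element (ERSE, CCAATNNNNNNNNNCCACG) was searched on both strands from 250 bases before to 50 after each RefSeq gene start (GRCm38.p6). It was found in 37 of 27025 genes (0.137%), and in 8 of the 26 genes of the ER folding list that had a promoter sequence (30.8%). The elements of the 8 ER genes that had a promoter match and were also tested are given in the CCAAT orientation, with the fixed letters in capitals and the spacer in lower case.
Creld2 (chr15:88819520-88819538, minus strand): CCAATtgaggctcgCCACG
Hsp90b1 (chr10:86705638-86705656, minus strand): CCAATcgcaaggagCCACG
Hsp90b1 (chr10:86705533-86705551, plus strand): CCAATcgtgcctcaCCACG
Dnajc3 (chr14:118937827-118937845, plus strand): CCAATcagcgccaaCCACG
Hspa5 (chr2:34772025-34772043, plus strand): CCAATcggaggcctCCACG
Pdia6 (chr12:17266491-17266509, plus strand): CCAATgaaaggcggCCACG
Calr (chr8:84847075-84847093, plus strand): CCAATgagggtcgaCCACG
Syvn1 (chr19:6046532-6046550, plus strand): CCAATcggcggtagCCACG
Canx (chr11:50325800-50325818, minus strand): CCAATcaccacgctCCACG
The 250 bases before the start of Creld2, the gene of this group with the highest fold change, show where the element (capitals, reading from the opposite strand) lies, beginning 126 bases before the start.
Creld2 upstream (chr15:88819396-88819645, plus strand): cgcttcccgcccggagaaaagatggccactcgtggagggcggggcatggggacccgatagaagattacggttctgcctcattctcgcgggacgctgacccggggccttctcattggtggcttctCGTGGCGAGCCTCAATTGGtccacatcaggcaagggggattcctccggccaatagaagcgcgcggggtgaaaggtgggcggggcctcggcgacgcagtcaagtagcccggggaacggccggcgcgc

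Plasma cells made up 0.560%, 5.67%, 7.24% and 2.98% of kept cells in Decoy 2, 3, 5 and 6, against 0.0290% (5 of 17219 cells, exact 95% interval 0.00943 to 0.0678%) in PBS. The Decoy libraries averaged 4.11 ± 2.95% (SD, n = 4), and none overlapped the PBS interval. This difference led to the choice of these cells, so it was not tested, and the PBS group had 1 library. The share of kept cells depends on how many leukaemic cells each library holds. Among kept cells without leukaemic genes, plasma cells were 2.43%, 7.15%, 7.26% and 5.29% in Decoy 2, 3, 5 and 6, against 0.184% in PBS. Among plasma and B cells together the 4 Decoy libraries lay close to each other, at 20%, 20.8%, 17.2% and 15.7%, against 2.51% in PBS (5 of 199 cells). Intervals and limits from counts cover counting error only.

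**Figure D1:**
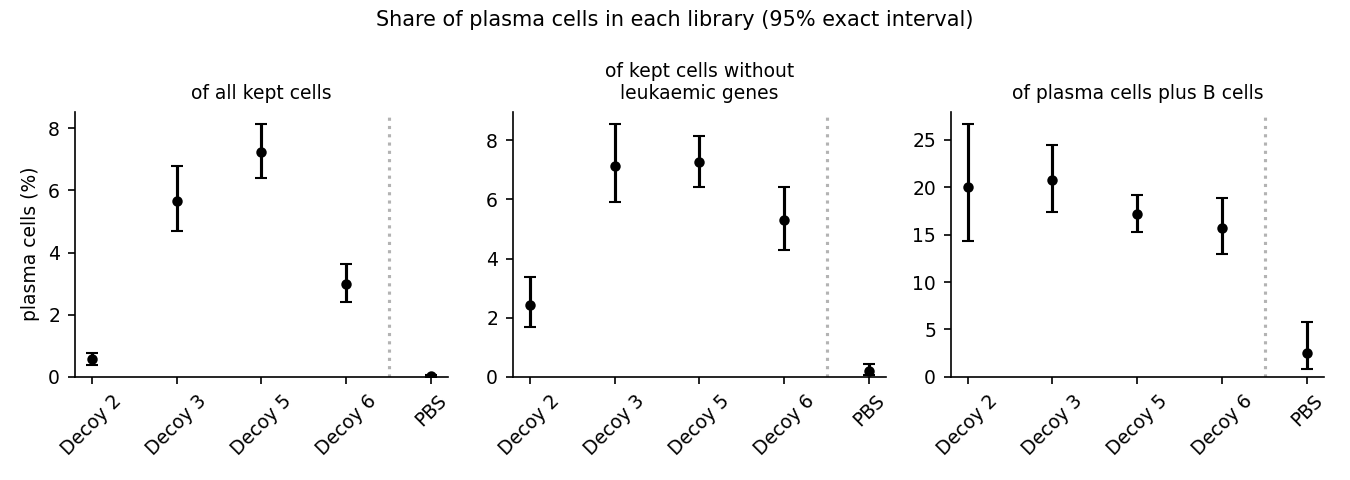
Plasma cells as a percentage of 3 denominators (y axes) in the Decoy 2, 3, 5 and 6 libraries and, right of the dotted line, the PBS library; points are single libraries and bars exact 95% binomial intervals. Decoy 2 lies lowest of the Decoy libraries among all kept cells (0.560%) but at 20% of plasma and B cells, and PBS lies lowest in each panel.

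The 5 PBS barcodes were not alike. Of these, 3 had 0.798 to 1.10% of UMIs from immunoglobulin genes, near the B cell median in PBS of 1.37%, together with 11 to 25 UMIs of Ms4a1, a B cell surface gene. The other 2 carried IgG2c, with 57.9% and 28.5% of UMIs from immunoglobulin genes. Both were among the barcodes with the highest doublet scores, which were 2708 of the 17219 kept in PBS. All 5 are left out of the comparisons that follow, which use the Decoy libraries. Some Decoy members had like values. Ms4a1 had a UMI in 37.1%, 36.4%, 41.8% and 33.3% of plasma cells in Decoy 2, 3, 5 and 6, with at most 10, 32, 56 and 22 UMIs. Their lowest immunoglobulin shares were 3.18%, 1.14%, 0.274% and 0.994% of UMIs.

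The levels of the rule's own genes describe the choice and do not check it. Jchain, the joining chain of polymeric antibodies, had a median of 338, 307, 310 and 285.5 UMIs per plasma cell in Decoy 2, 3, 5 and 6, against 0 in B cells of each library. Sdc1 (syndecan-1, CD138) was detected in 75% to 82.9% of plasma cells, against 0.583 to 1.43% of B cells, and Xbp1 in all plasma cells, against 40.7 to 54.8% of B cells. Few members sat at the edge of the rule: 4 of 502 had 5 to 9 Jchain UMIs and 36 met it with just 2 of the 4 genes, while 16 barcodes with enough Jchain missed it with 1 of the 4 and 134 had 1 to 4 Jchain UMIs. The label was checked against Prdm1, a plasma cell marker that the rule did not use, which was detected in 58.3 to 70.9% of plasma cells, against 2.14 to 9.05% of B cells. Kit, for which the cells had been sorted as protein, had a UMI in 11.4%, 4.55%, 4.21% and 2.08% of plasma cells in Decoy 2, 3, 5 and 6, against 0.583 to 1.43% of B cells. Such detection shares are not scaled for depth, which was higher in plasma cells. In the summed comparison described further on, Kit overlapped between the classes and did not pass (log2 0.77, adjusted p = 0.245 in edgeR's quasi-likelihood test). Siglech, the defining gene of plasmacytoid dendritic cells, which also express Jchain and Derl3, had a UMI in 0, 0, 1 and 0 plasma cells.

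Plasma cells held more RNA than B cells, with a median of 30611 to 32813 UMIs per cell against 6821 to 10933, and a lower mitochondrial share, with a median of 2.23 to 2.57% against 4.96 to 5.15%. Immunoglobulin genes took a median of 41.2%, 31.0%, 32.6% and 35.8% of a plasma cell's UMIs in Decoy 2, 3, 5 and 6, against 1.22 to 1.35% in B cells. The groups did not overlap between libraries. Within a library the share ran widely, for example between 3.18% and 62.9% in Decoy 2, and 74 of the 502 cells were under 10%. Summed over the plasma cells of a library, the kappa constant gene Igkc alone gave 15.1 to 20.7% of UMIs and the heavy chain constant genes together 5.94 to 7.83%.

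Some members held RNA of genes that mark other cell types, and where it came from was not tested. Of the 502 cells, 140 carried over 20 UMIs per 10000 from the T cell, macrophage, neutrophil, erythroid and granulocyte-monocyte progenitor lists, and 48 were among the highest doublet scores. The 48 were 1 of 35, 4 of 110, 37 of 261 and 6 of 96 plasma cells in Decoy 2, 3, 5 and 6. Of all kept cells, 358 of 6252, 53 of 1941, 156 of 3607 and 97 of 3221 were so marked. In summed plasma cells 9 to 10 of 10 macrophage genes were detected at 1.87 to 35.4 per 10000 UMIs, against 10 of 10 at 0.724 to 32.4 in B cells. In the gene comparison described further on, 3 of these 10 passed as higher in plasma cells and 0 as lower, against 20.4% of all genes higher. They were Hmox1 (log2 0.91), Vcam1 (0.84, higher in 3 of 4 libraries) and Slc40a1 (0.60). All 10 had log2 fold changes above 0 (0.409 to 0.908). The neutrophil list had 6 to 8 of 8 genes at 0.870 to 171 per 10000 in plasma cells, against 7 to 8 at 6.68 to 88.0 in B cells; Mmp8 and Csf3r were at 0 in plasma cells of Decoy 2. The monocyte list had 5 to 6 of 6 genes at 16.7 to 36.3 per 10000 in plasma cells, against 4.52 to 13.996 in B cells, and its member Ly6c2 is also a plasma cell gene. T cell genes were at 0.963 to 3.77 per 10000 in plasma cells, against 2.08 to 6.25 in B cells. Erythroid genes (8 to 9 of 9 detected) were at 2.33 to 14.7 per 10000 in plasma cells, against 1.80 to 33.3 in B cells, and progenitor genes (3 to 6 of 6) at 0.0216 to 6.28, against 0.108 to 3.84. The list of leukaemic and mast cell genes (5 to 6 of 8) was at 0.110 to 0.978 per 10000 in plasma cells, against 0.0791 to 0.730 in B cells, and Cma1 and Tpsb2 were at 0 in each library. Both classes had been chosen with fewer than 5 UMIs per 10000 of Cpa3, Ms4a2 and Fcer1a together. A low level of this list is therefore in part set by the rule. The summed plasmacytoid dendritic cell list was lower than in B cells, at 6.91 to 8.40 and 20.2 to 24.9 per 10000. Its member Ly6d averaged 338 CPM in plasma cells and 2047 CPM in B cells (log2 -2.61). Of 7 tested members, 2 were higher (Bst2, log2 2.12, and Tcf4, 0.31), 2 lower (Ly6d and Pacsin1) and 3 not called. The list median was log2 0.145, so the list as a whole was not lower. Each gene comparison below was repeated without the cells of mixed content; their part in the results was not tested further.

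Of the 502 Decoy plasma cells, 471 had at least 80% of their heavy chain constant UMIs from 1 gene, and 31 were mixed. IgG2c was the commonest class, with 182 cells, or 34.4%, 38.5%, 40.2% and 36.2% of assigned cells in Decoy 2, 3, 5 and 6 (37.3 ± 2.57%, SD, n = 4). IgM followed with 138 cells, or 31.3%, 40.4%, 27.0% and 22.3% (30.2 ± 7.68%). The IgM and IgG2c ranges overlapped between libraries, and Decoy 3 had more IgM than IgG2c cells. IgG2b made up 15.6%, 11.5%, 13.7% and 23.4% (72 cells), IgG1 3.13%, 0.962%, 11.6% and 9.57% (39 cells), IgA 4.81 to 6.25% (24 cells) and IgG3 2.49 to 9.38% (16 cells). No plasma cell was assigned to Ighd or Ighe, which allows a share of up to 0.637% of the 471. For IgG1, Decoy 3 had 1 such cell of 104 (exact 95% interval 0.0243 to 5.24%) and Decoy 5 had 28 of 241 (7.86 to 16.4%).

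Switched classes together made up 68.8%, 59.6%, 73.0% and 77.7% of plasma cells in Decoy 2, 3, 5 and 6 (69.8 ± 7.68%), against 1.74%, 0.585%, 0% and 0.227% of B cells (0.638 ± 0.773%). These are shares of cells that could be assigned. Of B cells, 115 of 140, 342 of 420, 924 of 1260 and 441 of 515 could be, and the rest are in neither class. The 0 in Decoy 5 B cells, of 924 assigned, allows up to 0.325%. Plasma cells were higher in 4 of 4 libraries, by 69.1 ± 7.97 percentage points; the exact paired permutation test (two-sided) gave p = 0.13, the smallest that 4 pairs allow. For B cells, Ighm and Ighd were pooled as unswitched, a choice made after seeing that most B cells held both. Among the 5 PBS cells 3 could be assigned, 2 to IgG2c and 1 to IgM. Summed over cells, Ighg2c reached 33204, 24710, 34607 and 39936 counts per 1000000 non-immunoglobulin UMIs (CPM) in plasma cells of Decoy 2, 3, 5 and 6, against 23.1, 61.3, 79.2 and 40.1 in B cells (log2 fold change 9.41). Ighm was higher in plasma cells as well, at 26883 ± 5367 and 1753 ± 159 CPM (log2 3.92), whereas Ighd was lower, at 12.4 ± 9.35 and 459 ± 94.4 CPM (-5.03). Each of these differences passed the test described further on.

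**Figure D2:**
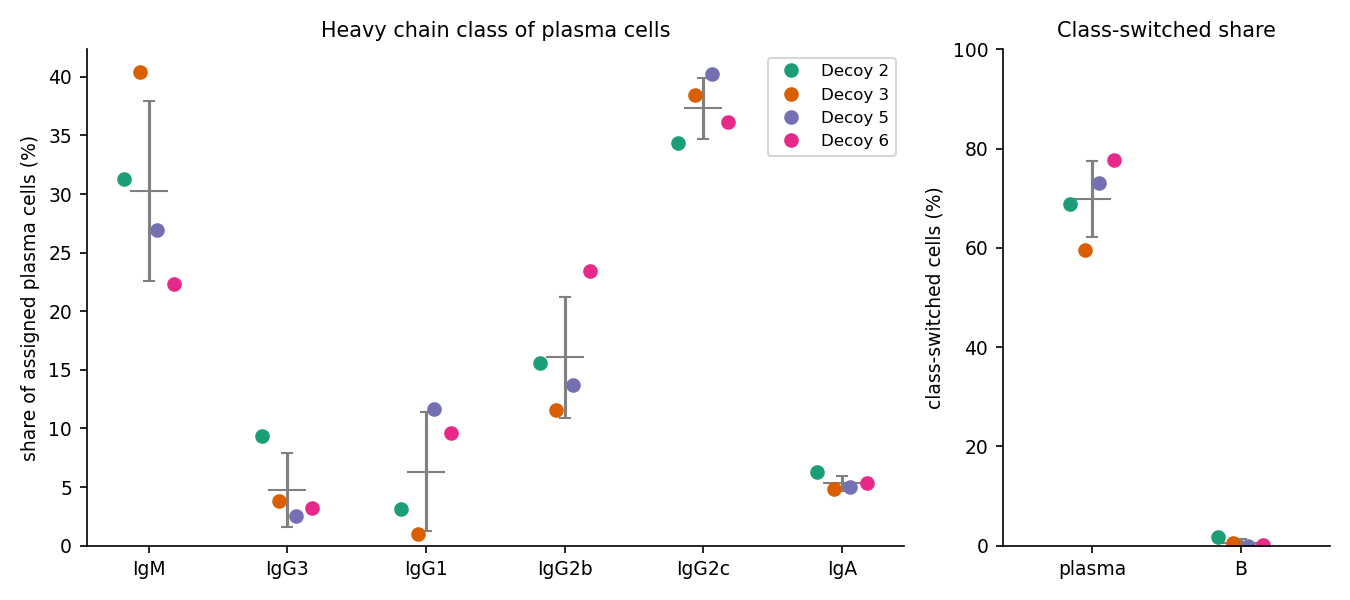
Left, the share of assigned plasma cells (y axis, percent) with each heavy chain class in Decoy 2, 3, 5 and 6 (coloured points). Right, the class-switched share of assigned plasma cells and of assigned B cells. Grey bars are the mean and SD over 4 libraries; IgG2c lies between 34.4% and 40.2% in each library, and the switched share is 59.6% or more in plasma cells and 1.74% or less in B cells.

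The classes differed in Jchain, which belongs to the rule and is given as a description. IgA cells had a median of 891.5 Jchain UMIs, IgM cells 470.5, IgG1 cells 311 and IgG2c cells 260, at similar depth (medians of 25620.5, 29943.5, 26941 and 33001 UMIs). IgM and IgA are the classes that the joining chain links into polymers. The order held in each library for IgA, IgM and IgG2c, with medians of 1209.5, 537 and 205 in Decoy 2, 1171, 481.5 and 219.5 in Decoy 3, 690, 393 and 289 in Decoy 5, and 972, 485 and 292.5 in Decoy 6. The IgA medians rest on only 2, 5, 12 and 5 cells, and the IgM median of Decoy 2 on 10.

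Switched and IgM plasma cells were compared gene by gene, on counts summed per library with the library as a block. No gene passed of 8580 tested (0% called; adjusted p in edgeR's quasi-likelihood test of at least 0.414), and 333 (3.88%) had an unadjusted p under 0.05. The smallest p belonged to Txndc5, a disulphide isomerase of the ER. It had 565, 560, 455 and 450 CPM in switched cells of Decoy 2, 3, 5 and 6, against 3546, 1179, 1468 and 2250 in IgM cells, a log2 fold change of -1.93 ± 0.26 (SE). The groups did not overlap, and the value was lower in 4 of 4 libraries. Tnfrsf17 (BCMA, the receptor for APRIL that plasma cells use to survive) had 13.9, 26.5, 21.2 and 24.5 CPM in switched cells, against 239, 48.0, 96.5 and 167 in IgM cells (log2 -2.28 ± 0.40, adjusted p = 0.685). These groups did not overlap either. DESeq2, fitted to the same sums, called 4 genes, all lower in switched cells, among them Txndc5 (adjusted p = 2.15e-06), Tnfrsf17 (0.00345) and Pls1, an actin-bundling protein (0.0166; 1.87 CPM in switched and 13.7 CPM in IgM cells); the remaining gene was Cd79a, a part of the B cell receptor. Cd79a chose B cells and no plasma cell, so it was tested between these 2 groups of plasma cells, where the 5 genes that chose plasma cells and the immunoglobulin genes were left out. Hba-a2, a globin gene and thus a marker of red cell RNA, was also among the 3 genes with the smallest p, at 163 CPM in switched and 47.4 CPM in IgM cells. It turned to a log2 fold change of -0.24 without the cells of mixed content, where Decoy 2 had too few cells to be used; Tnfrsf17 then stood at -1.46 (adjusted p = 0.0407 in edgeR's test).

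Prdm1 in switched and IgM cells (53.5 ± 7.85 and 81.1 ± 19.7 CPM, SD, n = 4), Slamf7 (194 ± 25.1 and 308 ± 116) and Cd74 (3005 ± 179 and 4846 ± 1813) were lower in switched cells of 4 of 4 libraries without passing. Mki67 had 454 ± 46.5 and 294 ± 200 CPM and did not pass. The sums of Decoy 2 rest on 22 switched and 10 IgM cells.

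Light chains were kappa in 94.1%, 96.2%, 96.1% and 96.7% of plasma cells that could be assigned, and lambda in 2, 4, 10 and 3 cells of Decoy 2, 3, 5 and 6. B cells give no like value, because 100 of 140, 329 of 420, 1015 of 1260 and 409 of 515 B cells held kappa and lambda UMIs together with neither at 80%. The lambda variable gene Iglv1 (chr16:19085017-19085500, minus strand) was found in kappa plasma cells, with a median of 109, 80, 80 and 78 UMIs per cell in Decoy 2, 3, 5 and 6. The same cells had a median of 41, 35, 27.5 and 25 UMIs of the lambda constant gene Iglc1. Kappa B cells had a median of 0 Iglv1 UMIs in each library. Light variable genes were therefore read within a cell's own chain, an alternative added after seeing these values.

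Heavy chain variable genes spread widely. Of the 303 Decoy plasma cells with 1 dominant heavy variable gene, 157 (51.8%) used the Ighv1 family, 29 Ighv5 and 23 Ighv3. The most used single genes were Ighv1-26 with 17 cells, Ighv1-64 with 14 and Ighv1-81 and Ighv5-17 with 13 each. Igkv10-96 was the most used light variable gene in each of the 4 libraries, with 34 cells. Both chains were read in 234 cells, which held 211 different pairs within libraries. A pair recurred in the same library 18 times, over 41 cells. Of those 18 pairs, 9 included more than 1 constant gene and 3 included both IgM and switched cells. The one found most often, Ighv1-26 with Igkv10-96 in Decoy 3, was in 5 cells (2 IgM, 2 IgG2b and 1 IgG2c), and Ighv3-8 with Igkv10-96 in Decoy 2 was in 3 (1 IgM, 1 IgG2c and 1 IgA). Across libraries, 11 pairs occurred in more than 1. Sharing of genes is not identity of the joined sequence, which 3′ counts do not give. With the light variable genes read over both chains, a mean of 26.4 ± 19.2% of cells (SD, n = 4) shared a pair within their library, and with the own chain 18.2%.

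Plasma cells were then compared with the B cells of the same 4 Decoy libraries, gene by gene. Immunoglobulin genes were left out of library size and scaling, and the 10 genes of the rules were left out of the test. Of 10876 genes tested, 2223 (20.4%) were higher and 2224 (20.4%) lower in plasma cells (edgeR's quasi-likelihood test with Benjamini-Hochberg adjustment, threshold 0.05), of which 44 and 1 were immunoglobulin genes. The median log2 fold change over all genes was -0.000457. Both classes had been separated on genes of the same cells, so that a difference between them is in part what the rule sought, and the counts below are read against these background shares.

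Among transcription factors and receptors of the plasma cell state, 23 of 29 tested members of the identity list were higher and 2 lower, with a list median of log2 2.68. Prdm1 had 62.6, 49.1, 49.8 and 65.6 CPM in plasma cells of Decoy 2, 3, 5 and 6, against 4.76, 7.68, 5.92 and 8.12 in B cells (log2 2.99 ± 0.15 SE, adjusted p = 7.7e-06). Irf4 had 163, 95.9, 108 and 106 CPM in plasma cells, against 17.7, 19.4, 16.7 and 13.6 in B cells (log2 2.73 ± 0.15). Neither gene overlapped between the classes. Tnfrsf17 had 46.9, 30.6, 40.3 and 45.9 CPM in plasma cells, against 0, 0, 0.0604 and 0 in B cells. That is 611 UMIs against 1, a ratio per non-immunoglobulin UMI of 1310 with a 95% counting interval of 234 to 51818. The gene was nonetheless read in only 31.3 to 42.7% of plasma cells. The related receptor Tnfrsf13b (TACI) went the other way, with 96.1 ± 16.5 CPM in plasma cells and 148 ± 24.1 CPM in B cells (log2 -0.62). Slamf7, a surface receptor of plasma cells, averaged 210 CPM in plasma cells and 32.3 CPM in B cells (log2 2.68), and Cxcr4, which holds plasma cells in the bone marrow, 32.0 and 9.09 CPM (log2 1.77). Eaf2, an elongation factor partner (log2 5.07), Epcam (5.38) and Ly6c2 (3.56) were also higher.

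**Figure D3:**
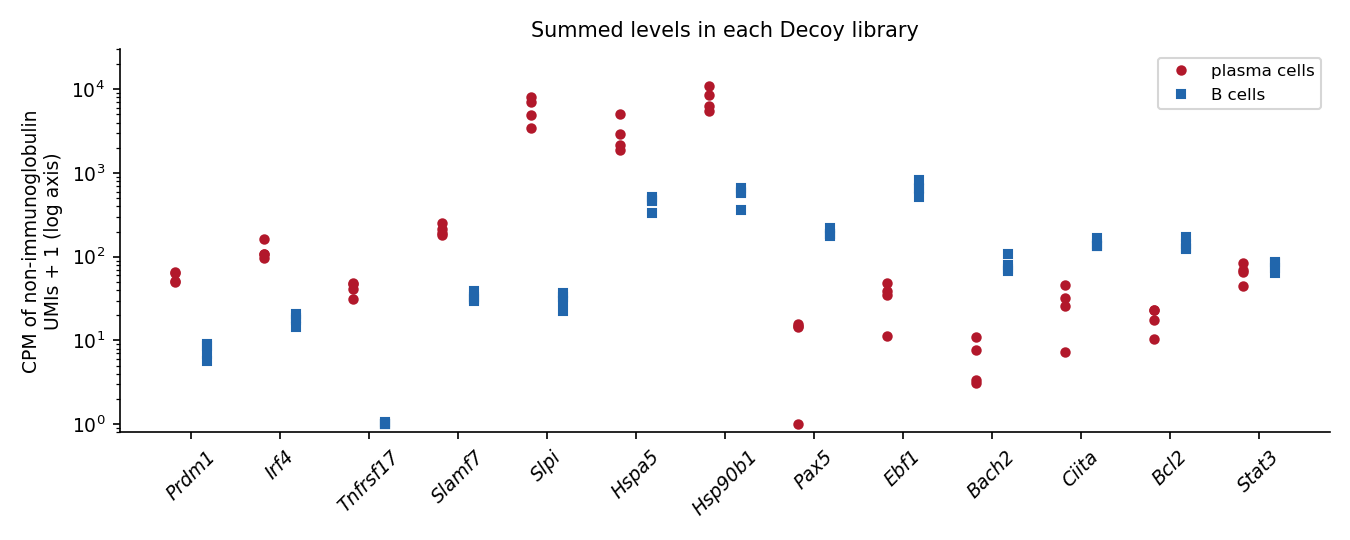
Summed levels of 13 genes (x axis) in plasma cells (red circles) and B cells (blue squares) of the 4 Decoy libraries, as CPM of non-immunoglobulin UMIs plus 1 on a log axis (y). Prdm1 to Hsp90b1 lie higher in plasma cells and Pax5 to Bcl2 lower without overlap, while Stat3 overlaps.

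Among tested genes that averaged at least 20 CPM over both classes, immunoglobulin genes aside, the 8 with the highest fold changes were Tnfrsf17, Slpi, Prg2, Fkbp11, Cpeb3, Pon3, Epcam and Endou. Slpi, a secreted protease inhibitor, had 8085, 3417, 7098 and 4890.3 CPM in plasma cells of Decoy 2, 3, 5 and 6, against 21.8, 36.4, 28.7 and 32.5 in B cells (log2 7.53 ± 0.35). Prg2, known as the eosinophil major basic protein, had 91.8, 99.8, 167 and 153 CPM in plasma cells, against 0, 2.72, 0.604 and 0.781 in B cells (log2 6.85 ± 0.45). Pon3, a lactonase, averaged 217 CPM in plasma cells and 4.46 CPM in B cells (log2 5.60), and Cpeb3, an RNA-binding protein, 45.6 and 0.680 CPM (log2 5.85). The 8 were picked among called genes that were higher in 4 of 4 libraries, so that direction is no further result. Of all 10876 tested genes, 2992 (27.5%) were higher in 4 of 4. Genes with almost no UMIs in B cells, such as Cpeb3, reached the mean of 20 CPM through plasma cells alone.

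The secretory route was higher along its length. Of 35 tested genes for entry into the ER, signal cleavage and N-glycosylation, 34 were higher and 0 lower (median log2 1.92). Among them were Srprb, a subunit of the signal recognition particle receptor (log2 3.15), Spcs3 and Sec11c, subunits of the signal peptidase (2.93 and 2.79), and Ssr2, of the translocon (2.81). All 28 tested folding genes were higher (median 2.36). Hsp90b1, the ER chaperone GRP94, had 11069.5, 5465, 6299 and 8598 CPM in plasma cells of Decoy 2, 3, 5 and 6, against 358, 654, 574 and 588 in B cells (log2 3.82 ± 0.29, adjusted p = 5.7e-05). Hspa5, the chaperone BiP that binds nascent heavy chains, had 5032, 1882, 2182.3 and 2923 CPM in plasma cells, against 328, 511, 476 and 456 in B cells (log2 2.66 ± 0.31). Decoy 2 was highest for both among plasma cells and lowest among B cells. Fkbp11, a prolyl isomerase, averaged 579 CPM in plasma cells and 6.16 CPM in B cells (log2 6.70), and Creld2 1238 and 36.7 CPM (log2 4.97). Txndc5 was higher as well (log2 3.75).

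All 17 genes of ER-associated degradation, which returns misfolded proteins to the cytosol, were higher (median log2 1.85), led by Edem1 (774 CPM in plasma cells and 52.4 CPM in B cells, log2 3.85), Edem2 (3.79), Sel1l and Ube2j1 (2.88 each). Of 32 genes for export to the Golgi, 30 were higher and 0 lower (median 1.499). Lman1, the cargo receptor ERGIC-53, averaged 590 and 46.6 CPM (log2 3.64), Sec24d, of the COPII coat, 61.0 and 7.28 CPM (2.89), and Kdelr2, which retrieves ER proteins, 306 and 55.2 CPM (2.44). Kdelr3 had 102 UMIs in plasma cells and 3 in B cells, a ratio of 72.9 with a counting interval of 24.2 to 359.

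The genes whose sequences are printed above all lay in these lists. Of the 12 tested genes with ERSE in the promoter, 8 were higher, each of them from the folding or degradation lists, and 2 were lower. Dnajc3, a co-chaperone of BiP, had 642 ± 171 CPM in plasma cells and 79.3 ± 9.83 CPM in B cells (log2 2.97). Pdia6, a disulphide isomerase, had 1031 ± 238 and 204 ± 38.0 CPM (2.32), and Calr, calreticulin, 1815 ± 398 and 482 ± 99.2 CPM (1.91). Syvn1, the degradation ligase HRD1, followed at 110 ± 26.1 and 42.0 ± 3.88 CPM (1.34), and Canx, calnexin, at 274 ± 5.21 and 159 ± 30.8 CPM (0.79). The element was in 8 of 1711 genes higher in plasma cells (0.468%), in 2 of 1717 lower ones (0.116%) and in 12 of 8560 tested genes with a promoter sequence (0.140%). The shorter letters TGACGTGG, the element named UPRE that XBP1 is known to bind, were in 42 of 1711 higher genes (2.45%), 13 of 1717 lower ones (0.757%) and 91 of 8560 tested genes with a promoter sequence (1.06%). Both motifs were searched separately, on both strands, so matches may overlap. A match is a run of letters and no evidence of binding.

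**Figure D4:**
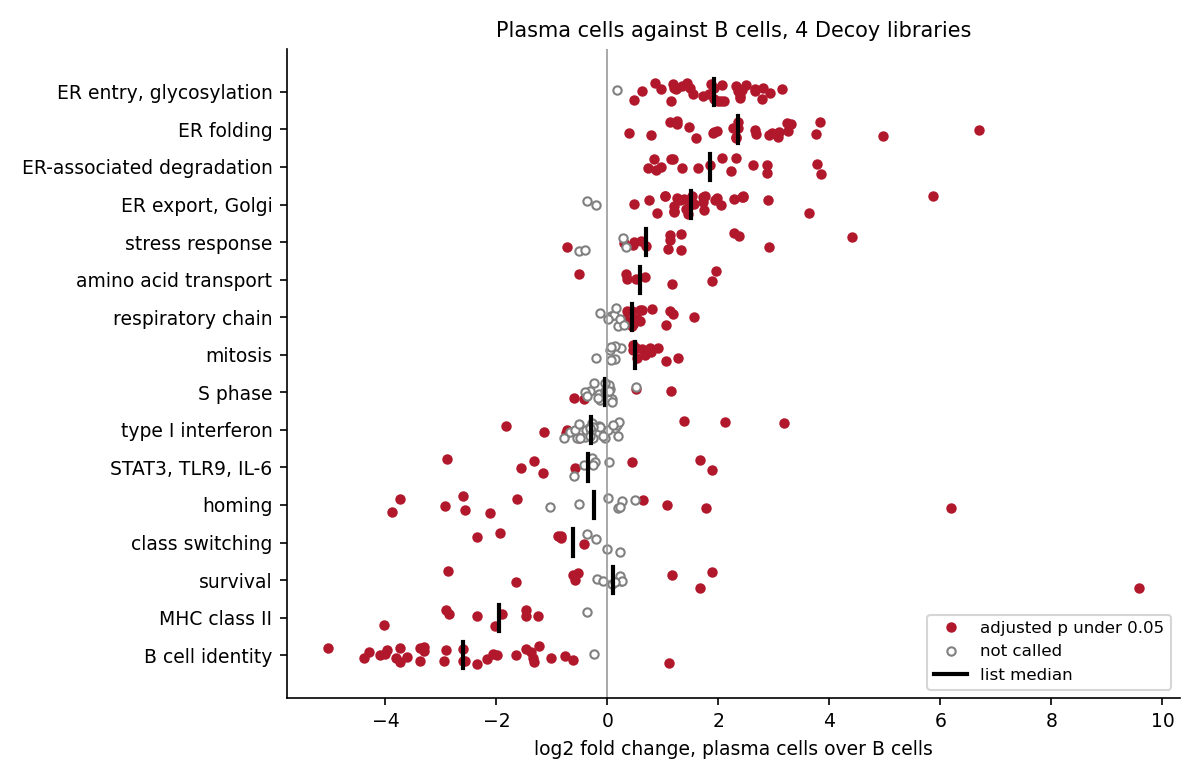
Log2 fold change of plasma cells over B cells (x axis) for the tested genes of 16 lists (rows); red points passed an adjusted p of 0.05, open points did not, and black bars are list medians. The 4 ER and Golgi lists lie right of 0 with medians of 1.499 to 2.36, and the B cell identity and MHC class II lists lie left of it with medians of -2.61 and -1.96.

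Of the stress sensors and the genes they induce, 14 of 19 were higher and 1 lower (median log2 0.70). Ern1, which encodes the sensor IRE1 that splices Xbp1 RNA, averaged 24.4 CPM in plasma cells and 2.65 CPM in B cells (log2 2.91), Asns, asparagine synthetase, 39.0 and 7.17 CPM (2.37), Atf5 17.6 and 3.04 CPM (2.28) and Chac1 7.40 and 0.224 CPM (4.41). Amino acid carriers were higher in 7 of 8 and lower in 1 (median 0.59), among them Slc3a2 and Slc7a5, the 2 chains of a single transporter (log2 1.96 and 1.88). Nuclear genes of the respiratory chain were higher in 17 of 25 and lower in 0 (median 0.45), with Ndufa1 at 582 and 197 CPM (log2 1.55) and Atp5g1 at 917 and 404 CPM (1.18).

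Genes of the B cell state were lower. Of 34 tested, 32 were lower and 1 higher (median log2 -2.61). Pax5 had 0, 13.4, 14.5 and 14.1 CPM in plasma cells of Decoy 2, 3, 5 and 6, against 218, 187, 184 and 173 in B cells (log2 -3.97 ± 0.37, adjusted p = 0.00014). Bach2 had 2.09, 9.91, 6.70 and 2.41 CPM in plasma cells, against 108, 78.3, 70.6 and 66.2 in B cells (log2 -3.60 ± 0.28). Both stood apart from B cells in each library. Ebf1, a B lineage factor, averaged 32.6 CPM in plasma cells and 660 CPM in B cells (log2 -4.29). Among tested genes that averaged at least 20 CPM over both classes, immunoglobulin genes aside, those with the lowest fold changes were Fcer2a (CD23, log2 -5.04), Cr2 (CD21, -4.39), Ebf1, Gm31243 (-4.26), B3gnt5 (-4.18), Fcmr (-4.10), Tespa1 (-4.05) and BE692007 (-4.05). Of 10 antigen presentation genes of MHC class II, 9 were lower and 0 higher (median -1.96). Ciita, their master activator, averaged 26.8 CPM in plasma cells and 143 CPM in B cells (log2 -2.35), H2-Oa 10.8 and 201 CPM (-4.02), and Cd74, the invariant chain, had 3263 CPM in plasma cells, against 7783 in B cells (-1.24). Irf8, a factor shared by B cells and myeloid cells, had 65.7, 129, 136 and 123 CPM in plasma cells, against 550, 446, 465 and 428 in B cells (-2.07 ± 0.22).

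Of 18 receptors for homing, 4 were higher, a share near the background, and 7 lower (median log2 -0.25). Ccr10, a receptor of mucosal antibody-secreting cells, had 136 UMIs in plasma cells and 3 in B cells, a ratio of 97.2 with a counting interval of 32.6 to 477. The follicle and lymph receptors were lower, with Cxcr5 at 3.90 and 48.3 CPM (log2 -3.74), Ccr6 at 3.40 and 64.0 CPM (-3.87) and S1pr1, which draws lymphocytes out of tissue, at 6.57 and 54.5 CPM (-2.92). Of 16 survival genes 4 were higher and 5 lower (median 0.11), against 20.4% of all tested genes in each direction. Bcl2 had 9.39, 22.1, 22.2 and 16.5 CPM in plasma cells, against 172, 123, 142 and 127 in B cells (log2 -2.87), whereas Bcl2l1, which encodes BCL-XL, averaged 16.6 and 4.47 CPM (1.88). The 2 inhibitors of cell death thus moved in opposite directions, without overlap between the classes.

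Genes that the treatment concerns were called at shares near or below the background of 20.4%, apart from the lower genes of the first list below. Stat3 itself had 43.8, 82.7, 63.9 and 68.8 CPM in plasma cells of Decoy 2, 3, 5 and 6, against 63.2, 86.2, 71.6 and 82.4 in B cells. The groups overlapped, and the log2 fold change of -0.22 ± 0.11 did not pass (adjusted p = 0.15); it was -0.56 (adjusted p = 0.00169) without cells of mixed content and -0.53 (0.0348) among cells of 3000 to 30000 UMIs. Over 14 STAT3, TLR9 and IL-6 genes, 3 were higher and 5 lower (median -0.35). Tlr9 averaged 0.268 CPM in plasma cells and 3.27 CPM in B cells (log2 -2.88). Il6st, the shared chain of the IL-6 receptor family, was higher at 23.7 and 6.82 CPM (1.66), as was the kinase gene Pim1 (291 and 79.5 CPM, 1.89), while Il21r was lower (-1.56). Of 33 type I interferon genes, 3 were higher and 5 lower (median -0.29), both smaller shares than among all genes. The 3 were Isg20 (311 and 34.7 CPM, log2 3.18), Bst2 (488 and 114 CPM, 2.12) and Zbp1 (209 and 79.8 CPM, 1.39), while Phf11b was lower (-1.83). PBS held too few plasma cells to show a treatment effect within them.

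The class switching list had 0 higher and 6 lower of 10 (median log2 -0.62). Tbx21, which encodes T-bet, a factor known for IgG2a and IgG2c switching in the mouse, averaged 3.71 CPM in plasma cells and 16.2 CPM in B cells (log2 -1.93), Batf 26.8 and 51.1 CPM (-0.89) and Zbtb32 1.58 and 8.83 CPM (-2.34).

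A share of the plasma cells carried mitotic genes. After each cell was thinned to 2000 non-immunoglobulin UMIs, 31.4%, 39.4%, 39.1% and 35.4% of plasma cells in Decoy 2, 3, 5 and 6 held at least 3 of 18 mitotic genes, against 15%, 23.2%, 17.5% and 11.3% of B cells. The shares were 36.3 ± 3.74% in plasma cells and 16.7 ± 4.99% in B cells (SD, n = 4), a difference of 19.6 ± 3.91 percentage points, higher in 4 of 4 libraries (exact paired permutation test, two-sided, p = 0.13, the smallest possible). The difference was 10.9 percentage points when plasma cells needed at least 10% immunoglobulin UMIs and 13.4 when cells had at most 5% mitochondrial UMIs. Unthinned, the shares were 51.4 to 62.1% and 19.8 to 35.7%. Other kept cells without leukaemic genes had 35.9 to 51.6%. Thinning left out 6 plasma cells of Decoy 3 and 1 of its B cells. Of the 18 genes in the summed comparison, 11 were higher and 0 lower (median log2 0.49), with Mki67 at 445, 406, 448 and 467 CPM in plasma cells, against 197, 244, 217 and 191 in B cells (log2 1.06 ± 0.12, adjusted p = 0.00042). Cdc20, which opens anaphase, was at log2 1.26 and Ccnb1, which encodes a cyclin of mitosis, at 0.91. Among cells of 3000 to 30000 UMIs, which drops Decoy 2, these became 0.45 (adjusted p = 0.129) and 0.10 (0.737). The S phase list had 2 higher and 2 lower of 22 (median -0.04), both smaller shares than the 20.4% among all tested genes. They were Rrm2, a subunit of ribonucleotide reductase, at 1.15, Fen1 at 0.51, Uhrf1 at -0.59 and Mcm3 at -0.42. The call of Mcm3 was lost without Decoy 3, 5 or 6 in turn (log2 -0.36, -0.32 and -0.46, adjusted p of 0.139, 0.191 and 0.0736 in edgeR's test) and without the library block (-0.41, 0.0616), and that of Uhrf1 without Decoy 5 (-0.47, 0.0657). The call of Fen1 was lost without Decoy 6 (log2 0.42, adjusted p = 0.0787), with at least 10% immunoglobulin (0.30, 0.171), with at most 5% mitochondrial UMIs (0.28, 0.187) and among cells of 3000 to 30000 UMIs (0.44, 0.0645).

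Plasma cells with mitotic genes held a smaller share of immunoglobulin RNA. Its median was 8.87%, 13.7%, 18.6% and 23.8% of UMIs in mitotic plasma cells of Decoy 2, 3, 5 and 6, against 48.0%, 41.2%, 39.5% and 45.9% in the others. The median was lower in the mitotic cells of each library, though single cells overlapped. Immunoglobulin was under 10% of UMIs in 7 of 11, 15 of 41, 29 of 102 and 6 of 34 mitotic cells, against 0 of 24, 4 of 63, 8 of 159 and 5 of 62 of the others. The mitotic cells also had more UMIs, with medians of 60645, 54905, 43700.5 and 39185.5, against 26099, 27808, 25643 and 27656. Median Jchain counts were 173, 298, 271.5 and 245 UMIs in mitotic cells and 435, 332, 328 and 306 in the others. Unlike the immunoglobulin share, these counts are not scaled to the cell's UMIs, so the 2 cannot be compared.

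**Figure D5:**
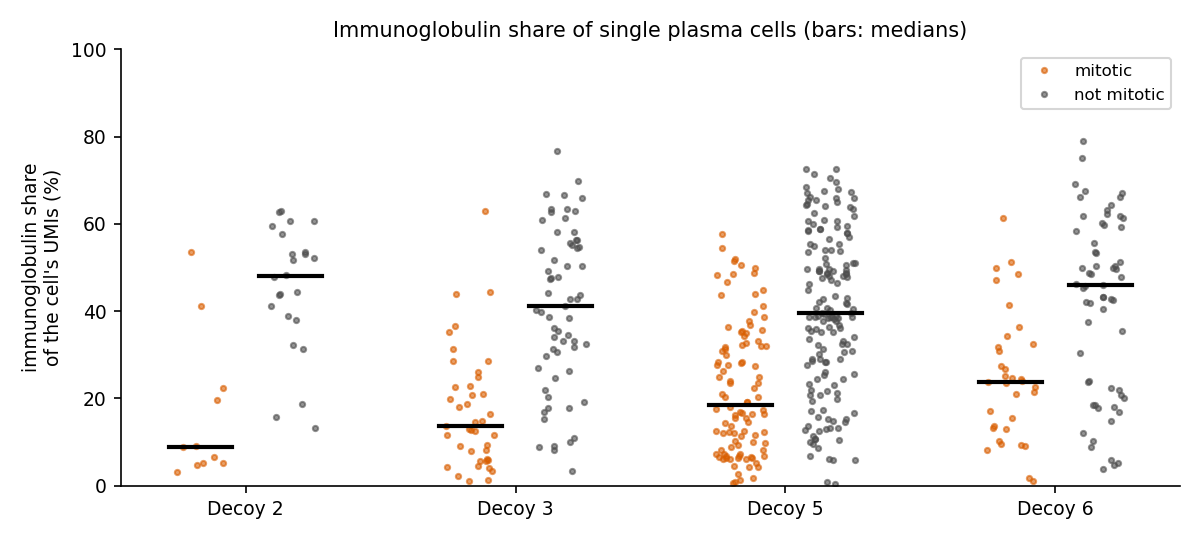
Share of each plasma cell's UMIs from immunoglobulin genes (y axis, percent) in the 4 Decoy libraries, for mitotic cells (orange, left) and other cells (grey, right); points are cells and bars medians. Mitotic medians run between 8.87% and 23.8% and the others between 39.5% and 48.0%.

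Genes of the sex chromosomes gave a further value. The Y-linked genes Kdm5d (12.7 CPM in plasma cells and 26.0 CPM in B cells, log2 -0.88), Uty (-0.55) and Eif2s3y (-0.37) were lower in plasma cells. None of the 3 calls held under every alternative. Kdm5d did not pass among cells of 3000 to 30000 UMIs (log2 -0.55, adjusted p = 0.0736) or without mitotic cells (-0.51, 0.0993). Uty did not pass in these settings either (-0.54, 0.114, and -0.38, 0.312), nor with at most 5% mitochondrial UMIs (-0.27, 0.220), without Decoy 3 (-0.48, 0.0888) or without Decoy 5 (-0.54, 0.0766). Eif2s3y lost its call in the same 5 settings (log2 -0.30 to -0.046 in the first 4 and -0.37 without Decoy 5). It was also lost without the library block (-0.33, 0.433), with DESeq2 (-0.35, 0.0762), with at least 10% immunoglobulin (-0.11, 0.508), without the highest doublet scores (-0.32, 0.0851) and without cells of mixed content (-0.26, 0.102). Xist averaged 22.8 and 13.9 CPM and did not pass (log2 1.29, adjusted p = 0.11), but passed without the low-count filter (1.26, 0.0229) and without the highest doublet scores (1.89, 0.0102). It had 58.4, 16.8, 0.379 and 15.7 CPM in plasma cells, against 42.2, 0.743, 0 and 12.6 in B cells.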

How the data were processed

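RNA of cells from 5 spleen sorts was measured with 10x Genomics 3′ chemistry, per the labels. The deposited values were counts, whole UMIs per gene and barcode, not normalized by the authors; the lowest barcode total was 500 to 502, which points to a minimum set upstream. Per the file headers, the matrices came from Cell Ranger 5.0.0; the submitters' processing notes list Cell Ranger 3.1, Seurat 4, DESeq2 and mm10, with no roles; the annotation is not given in the sources used here.

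Members and gene lists were chosen with earlier results of these data known. Counts were summed per library and cell class (at least 20 cells; 10 for isotypes). Genes with too few counts were removed with edgeR's filter, and edgeR 4.0.16 (R 4.3.3) quasi-likelihood tests were run with the library as a block, since both classes came from the same library. Library sizes and TMM factors used genes outside the 392 immunoglobulin genes; CPM are on that scale. Benjamini-Hochberg adjustment ran over all tested genes outside the 10 rule genes (for switched against IgM cells, outside the 5 that chose plasma cells and the immunoglobulin genes), with a threshold of 0.05. Named genes were a fixed set, the 8 called genes with the largest fold change in each direction (mean of at least 20 CPM, same direction in each library), and at most 4 called genes per list; for switched against IgM cells, the 3 with the smallest p. Promoter-motif genes, Ighd, Ighm, further members of the lists and, for switched against IgM cells, the plasma cell genes were added after their values were seen. The fit was tested on simulated data.

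A cell's class was the constant gene with at least 80% of its heavy constant UMIs (at least 10; 2 in B cells). Intervals are exact (Clopper-Pearson, 95%), and the limit for a count of 0 is 3 counts. Sequencing depth is given with the members. Doublets were scored with scrublet in scanpy 1.11.5, at an expected 0.8% per 1000 barcodes; marked barcodes were kept, and removed in an alternative. Exact permutation tests took every sign flip of the library differences, with numpy 2.4.6, and the exact intervals used scipy 1.17.1. Coordinates are mm10 (GENCODE M21); promoters are RefSeq's, GRCm38.p6. The alternatives tried were no block, other scaling, no low-count filter, DESeq2 1.42.0, each library left out, stricter cell rules and other thinning or dominance settings; 9 were added after seeing the data. Some genes of the fixed set are not reported here.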

Additional observations from a re-analysis of the deposited data

Results flagged for a closer look

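The difference between plasma and B cells of a library, on the log2(CPM + 1) scale, was examined for 1 library standing apart from the other 3 in 116 groups of 4 libraries, and 16 did; chance gives about 1 in 20. In most of them the library was Decoy 2, which has 35 plasma cells. Its differences were further below 0 than those of the other 3 for Pax5 (-7.77), Cr2 (-7.43), Fcer2a (-7.02), Ccr6 (-6.15), B3gnt5 (-6.09), Phf11b (-4.06), Irf8 (-3.05) and Kdm5d (-1.83). Pax5, Cr2, Fcer2a, Ccr6 and B3gnt5 were at 0 CPM in the plasma cells of Decoy 2. Its differences were further above 0 for Ighg3 (8.15), Endou (6.38), Ern1 (3.91), Atf5 (3.21) and Cdc20 (2.55). Decoy 3 stood apart for Prg2 (4.76, below the others) and Xist (3.35, above them), and Decoy 6 for Kdelr3 (3.30, above them). Cells of mixed content were 3 of 35 plasma cells in Decoy 2, against 38 of 110, 71 of 261 and 28 of 96 in Decoy 3, 5 and 6; their part in these differences was not tested.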

How the results depend on the processing

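Between plasma and B cells, 2223 genes were higher and 2224 lower. With the pairing by library dropped (no replicate block), 1944 and 2013 were, and in the block-free fit of switched against IgM cells 0 and 0. Leaving out each library in turn gave 1415 to 2631 higher and 1309 to 2356 lower genes, the fewest without Decoy 5. The other alternatives kept both counts within 1.5 times. Among cells of 3000 to 30000 UMIs, 76 of 4191 calls changed sign, and without mitotic cells (at least 3 of the 18 genes before thinning) 40 of 4028; both drop Decoy 2, as does removing doublet scores or mixed content from switched and IgM cells.

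For switched against IgM cells, dropping the low-count filter gave 45 higher and 23 lower genes. Genes named above were among them in edgeR's test: Txndc5 (adjusted p = 1.44e-15), Tnfrsf17 (2.89e-16) and Pls1 (0.000418), all lower, and Hba-a2 (3.04e-11), higher. DESeq2 gave 4 lower, removing the highest doublet scores 5 higher, and removing mixed content 2 higher and 1 lower. The cell share with a common variable pair was 63.2% at 50% dominance. The mitotic share was 27.6% in cells with at least 10% immunoglobulin, 44.0% with at least 2 of the 18 genes and 57.4% without thinning; the difference from B cells was then 10.9, 24.2 and 31.0 percentage points, and 13.4 with at most 5% mitochondrial UMIs.

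Signs turned for Hba-a2 (-0.24 without mixed content) and Hspa5 between switched and IgM cells (-0.033 to 0.19 leaving out a library, the lowest without Decoy 2). Tnfrsf13b did not pass among cells of 3000 to 30000 UMIs (log2 -0.21, adjusted p = 0.189) or without mitotic cells (-0.26, 0.151), nor Tbx21 without mitotic cells (log2 -1.78 there and -1.93 with them, adjusted p = 0.0686); the cause was not tested. Decoy 2, with 35 plasma cells, and PBS, with 5, limit what can be resolved.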
